A study of Capra hircus with 9 samples.

Results

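The extracellular matrix (ECM) genes described here are 109 of the 9131 transcripts in the authors' deposited differential table for goat mammary gland. They are the transcripts that the deposited pathway table assigns to ECM-receptor interaction, together with all transcripts described as a collagen. CD36 antigen, integrin alpha 4 and the members of the cell adhesion molecule pathway were left out. The pathway gave 96 members and the collagen descriptions a further 13. The 109 transcripts carry 38 protein descriptions, of which 28 name 1 gene and 10 name a family such as tenascin or the fibrillar collagens. They come from 71 assembly components, the groups of transcripts that share sequence, so isoforms of 1 component are not independent measurements.

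Mammary tissue of Xinong Saanen dairy goats was sequenced with short single-end reads of poly(A)-selected RNA, from 9 samples in 3 stages. The dry-off samples were taken 310 days postpartum, the non-lactation samples from goats that were neither lactating nor pregnant, and the lactation samples 100 days postpartum. Each stage has 3 samples, and the labels do not say whether these are separate animals, so p-values measure only the spread between these samples, which may be technical. No genetic change or drug treatment is named for any stage. The authors' deposited table gives 1 mean per stage in RPKM, which divides reads by transcript length and library size, and no value per sample is used here.

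The ECM is the protein network outside cells. Fibrillar collagens give it tensile strength, while collagen IV, laminins and heparan sulfate proteoglycans form the basement membrane on which epithelium, myoepithelium, endothelium and muscle cells rest. Integrins, dystroglycan, CD44 and CD47 are cell-surface receptors that bind these ligands or related ones. In the mammary gland, laminin held by beta 1 integrins and dystroglycan is known, mainly from mouse, to sustain milk gene expression, and the stroma is remodelled when milk removal stops.

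Marker genes of the cell types of the gland differed in level between the stages. Alpha-lactalbumin, a milk protein of luminal epithelial cells, made up 0.371% of the summed mean RPKM of the table in dry-off, 15.6% in non-lactation and 36.5% in lactation. Summed over the 7 of 10 fibroblast markers that could be matched, mean RPKM was 1827 in dry-off, 1139 in non-lactation and 238 in lactation. Vimentin alone had 984, 544 and 172 RPKM in that order. Of the 7, 5 rose in dry-off against lactation, meaning here and below a false discovery rate (FDR) below 0.05 in the authors' deposited table. The 4 of 9 endothelial markers matched outside the ECM members summed to 321 RPKM in dry-off, 229 RPKM in non-lactation and 54.2 RPKM in lactation, with 1 rise. Von Willebrand factor, also on the endothelial list, is an ECM member, was left out of this sum and rose as well. Macrophage markers, 7 of 9 matched, summed to 670 RPKM in dry-off, 267 RPKM in non-lactation and 70.2 RPKM in lactation, with 6 rises. T and NK cell markers, 5 of 7 matched, summed to 239 RPKM in dry-off, 85.0 RPKM in non-lactation and 14.2 RPKM in lactation, with 3 rises. The 3 of 8 myoepithelial markers summed to 741 RPKM in dry-off, 498 RPKM in non-lactation and 305 RPKM in lactation, and none passed. Nearly all of this was smooth muscle actin, with 733, 489 and 303 RPKM in that order. The oxytocin receptor differed, with 0.892 RPKM in dry-off, 4.44 RPKM in non-lactation and 1.18 RPKM in lactation. Luminal epithelial markers, 3 of 8 matched, summed to 1092 RPKM in dry-off, 31047 RPKM in non-lactation and 60999 RPKM in lactation, nearly all of it alpha-lactalbumin, and E-cadherin rose while alpha-lactalbumin fell in dry-off. Adipocytes and skeletal muscle were each represented by 1 of 6 markers. Hormone-sensitive lipase of adipocytes had 4.34 RPKM in dry-off, 5.44 RPKM in non-lactation and 1.73 RPKM in lactation and rose in dry-off, and troponin T of fast muscle had 7.28 RPKM in dry-off, 1.81 RPKM in non-lactation and 0.439 RPKM in lactation and did not pass. These counts of rises stand beside the 65.9% of all tested transcripts that rose and a median of 4.25-fold over the table. Above that median lay 7 of 7 fibroblast, 4 of 4 endothelial, 6 of 7 macrophage and 5 of 5 T and NK cell markers. For myoepithelial and for luminal epithelial markers it was 1 of 3 each. Troponin T also lay above it and hormone-sensitive lipase below. No matched marker was at 0 in any stage. The part of these markers in the ECM results was not tested, and in bulk tissue fewer cells of a type and less RNA per cell cannot be told apart.

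The first comparison asks how the gland at dry-off differs from the gland in lactation. In the authors' deposited table, 63 of the 109 ECM transcripts rose in dry-off at an FDR below 0.05 and none fell. That is 57.8% of the members, against 65.9% of all tested transcripts that rose and 0.690% that fell. At this cutoff, counted per transcript, the share of rises lay below that of the table as a whole. At an FDR below 0.01 the members' share lay above the table's, with 27 of 109 members and 1505 of 9129 tested transcripts passing. At an FDR below 0.05 with 1 transcript per component, 38 of 71 members rose, against 4144 of 6475 transcripts of the table that passed. The members' share was again the lower one. With 1 transcript per description, 26 of 38 rose (68.4%), and no share over the table was computed for that setting. An unadjusted p below 0.05 was reached by 92 members, or 84.4%, against 86.9% of all tested transcripts. The sizes of the differences lay above those of the table. The median member had a 7.90-fold higher mean in dry-off than in lactation, against 4.25-fold over all transcripts, and 93 of the 107 members with a ratio lay above the median of the table. The other 2 members had a mean of 0 in lactation. Every one of the 109 had a higher mean in dry-off than in lactation, as did 97.3% of the table. The table holds 9131 of the 51299 transcripts listed, and the authors name them differentially expressed. Members and table alike were thus already selected for a difference, and these shares do not describe all transcripts of the gland. Of the 93 members above the table's median fold, 36 did not pass the FDR (38.7%), against 1428 of 4466 transcripts of the table (32.0%).

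Because most of the table was higher in dry-off, the members' rises were also set against the table's median log2 ratio of 2.09, computed from the authors' means. The 44 ribosomal protein transcripts had a median log2 ratio of 1.00. Rises stated for tenascin, agrin, laminin alpha 3, laminin gamma 2 and collagen XII hold for the RPKM values as deposited. For the most abundant transcript of each, however, differences from the table's median were -0.26, -0.41, -0.59, -0.10 and -0.04 on the log2 scale. The other tenascin transcripts that rose had log2 ratios of 2.04, 3.27, 3.35 and 3.43. A second collagen XII component rose 8.39-fold, above the table's median. No member that rose fell below the median of the ribosomal proteins. The counts of rises by role below stand beside the 65.9% of all tested transcripts that rose. The shares were 66.7% for fibrillar collagens, 38.5% for collagens VI, XII and XIV and 66.7% for collagens IV, XV and XVIII. They were 64.7% for laminins, 28.6% for perlecan and agrin, 51.7% for adhesive glycoproteins and 80.0% for receptors.

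**Figure D1:**
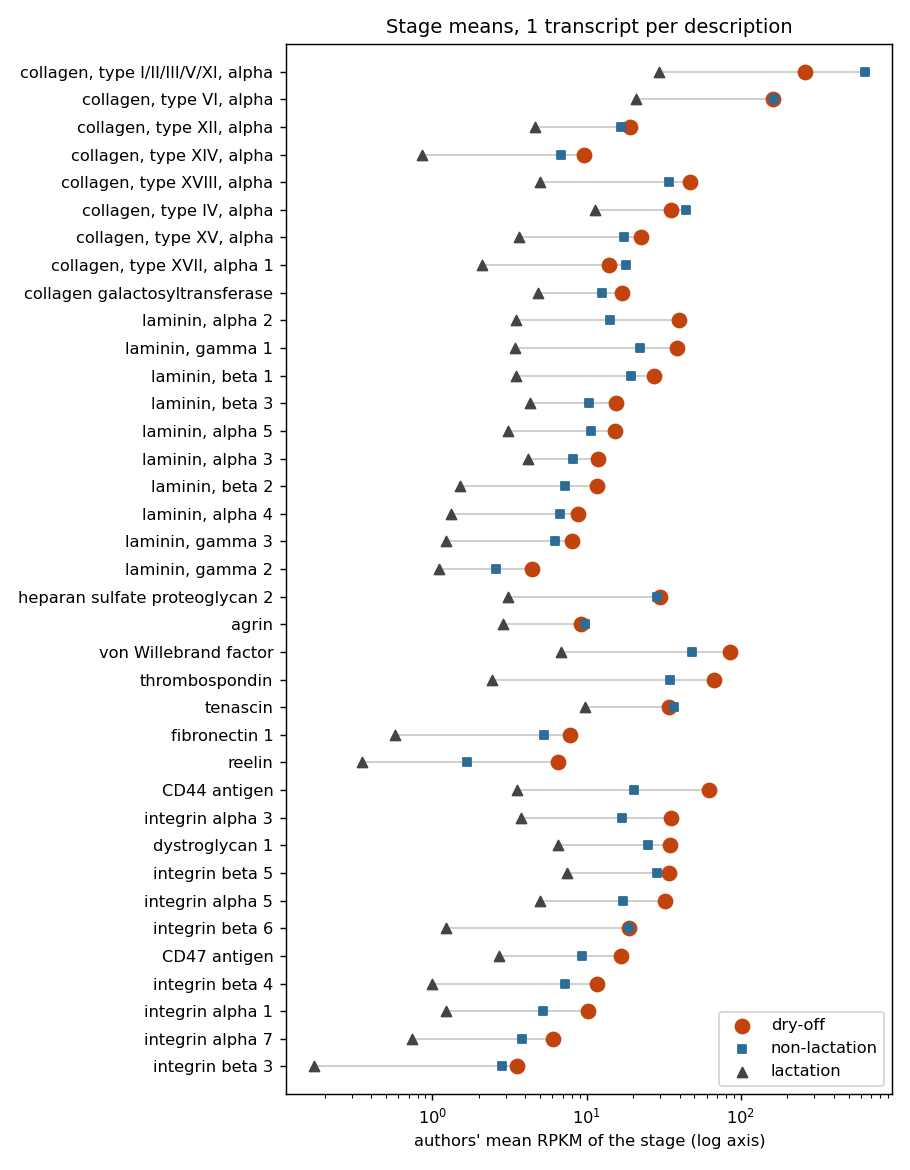
Mean RPKM of each stage on a log axis, as the authors deposited it, for the transcript with the highest mean under each description. Circles are dry-off, squares non-lactation and triangles lactation, with no error because no values per sample are used; the lactation mean is the lowest in every row, and integrin alpha 11 is not drawn because it is listed at 0 in 2 stages.

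Fibrillar collagens, which build the fibres of the stroma, were the most abundant members. The description joins types I, II, III, V and XI, so the chains cannot be told apart by name, and 6 of its 9 transcripts from 7 components rose in dry-off. The most abundant one had a mean of 262 RPKM in dry-off, 637 RPKM in non-lactation and 29.3 RPKM in lactation in the authors' deposited table. Its dry-off mean was 8.93-fold that of lactation (FDR 0.00747 in the authors' deposited table). A second component had 185 RPKM in dry-off, 328 RPKM in non-lactation and 17.4 RPKM in lactation, with an FDR of 0.0158 for dry-off against lactation in the authors' deposited table. The third had 119 RPKM in dry-off, 318 RPKM in non-lactation and 15.9 RPKM in lactation (FDR 0.0428 in the same deposited table of the authors). These 3 components shared 1 order of stages, with non-lactation highest and lactation lowest. The other 6 transcripts were far less abundant, at 2.74 to 11.7 RPKM in dry-off, and 3 of them rose.

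Collagens VI, XII and XIV, which form beaded microfilaments or sit on the surface of fibrils, gave 5 rises among 13 transcripts. All 13 had an unadjusted p below 0.05 in the authors' deposited table, against 86.9% of all tested transcripts. Collagen VI reached 163 RPKM in dry-off, 164 RPKM in non-lactation and 20.8 RPKM in lactation in the authors' deposited table. Its 7.82-fold higher dry-off mean did not pass (FDR 0.0573 in the authors' deposited table), and 1 of the 7 collagen VI transcripts did. That one had 94.4 RPKM in dry-off, 117 RPKM in non-lactation and 16.3 RPKM in lactation, with an FDR of 0.0487 in the authors' deposited table. Collagen VI was therefore almost level between dry-off and non-lactation in its most abundant transcript. The fibril-associated collagen XII had 19.1 RPKM in dry-off, 16.8 RPKM in non-lactation and 4.63 RPKM in lactation (FDR 0.0356, dry-off against lactation, in the authors' deposited table). Another fibril-associated chain, collagen XIV, had 9.62 RPKM in dry-off, 6.83 RPKM in non-lactation and 0.857 RPKM in lactation (FDR 0.0106 in the authors' deposited table). A second collagen XIV component had 5.52 RPKM in dry-off, 1.79 RPKM in non-lactation and 0.0538 RPKM in lactation. Its dry-off mean was 103-fold the lactation mean, the highest ratio among the members, yet it did not pass (FDR 0.0637 in the authors' deposited table).

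Among the collagens of the basement membrane zone, the network chains of collagen IV and the proteoglycan-type collagens XV and XVIII, 4 of 6 transcripts rose. Collagen XVIII, whose fragment endostatin inhibits vessel growth, had 46.8 RPKM in dry-off, 34.3 RPKM in non-lactation and 4.98 RPKM in lactation and rose 9.40-fold (FDR 0.00521 in the authors' deposited table). For collagen XV the means were 22.5 RPKM in dry-off, 17.6 RPKM in non-lactation and 3.64 RPKM in lactation, a 6.17-fold rise (FDR 0.018 in the authors' deposited table). Both transcripts of each of these collagens rose. The 2 collagen IV transcripts did not pass: the more abundant had 35.2 RPKM in dry-off, 44.0 RPKM in non-lactation and 11.4 RPKM in lactation (FDR 0.0995 in the authors' deposited table). Its partner component had 26.5 RPKM in dry-off, 43.0 RPKM in non-lactation and 11.2 RPKM in lactation (FDR 0.175 in the authors' deposited table), the smallest dry-off ratio of all members at 2.37-fold. Collagen XVII, a transmembrane chain of the hemidesmosome that anchors basal epithelial cells, had 13.98 RPKM in dry-off, 17.9 RPKM in non-lactation and 2.08 RPKM in lactation. Neither of its 2 transcripts passed, with FDRs of 0.186 and 0.0892 in the authors' deposited table. The collagen galactosyltransferase, an enzyme that glycosylates collagen and is a member only through the wording of its description, had 17.0 RPKM in dry-off, 12.5 RPKM in non-lactation and 4.82 RPKM in lactation and did not pass (FDR 0.101 in the authors' deposited table).

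Laminins are trimers of an alpha, a beta and a gamma chain. Chains of all 3 kinds were measured, and 11 of 17 laminin transcripts rose in dry-off. Laminin alpha 4, a chain of vessel basement membranes, had 8.74 RPKM in dry-off, 6.73 RPKM in non-lactation and 1.31 RPKM in lactation (6.67-fold, FDR 0.0037 in the authors' deposited table). Laminin alpha 5, the widespread epithelial alpha chain, had 15.3 RPKM in dry-off, 10.6 RPKM in non-lactation and 3.11 RPKM in lactation (FDR 0.0102 in the authors' deposited table). The alpha 2 chain, best known from muscle and nerve basement membranes, had the highest dry-off mean of the laminins, but not the highest in the other stages. It had 39.7 RPKM in dry-off, 14.3 RPKM in non-lactation and 3.48 RPKM in lactation and did not pass (FDR 0.0596 in the authors' deposited table). A separate alpha 2 component rose 27.2-fold, with 7.78 RPKM in dry-off, 2.69 RPKM in non-lactation and 0.286 RPKM in lactation (FDR 0.0221 in the authors' deposited table). Calls within the alpha 2 description were thus mixed, with 1 rise among 3 components.

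Among the beta and gamma chains, 4 transcripts of beta 2 from 1 component rose, and the most abundant had 11.6 RPKM in dry-off, 7.20 RPKM in non-lactation and 1.51 RPKM in lactation (FDR 0.00736 in the authors' deposited table). Gamma 3 had 8.04 RPKM in dry-off, 6.21 RPKM in non-lactation and 1.22 RPKM in lactation and rose (FDR 0.00558 in the authors' deposited table). A second gamma 3 component had 2.03 RPKM in dry-off, 2.03 RPKM in non-lactation and 0.183 RPKM in lactation and did not pass (11.1-fold, FDR 0.069 in the authors' deposited table). The beta 1 and gamma 1 chains, shared by many laminin trimers, had larger folds without passing. Beta 1 had 27.1 RPKM in dry-off, 19.4 RPKM in non-lactation and 3.49 RPKM in lactation (7.78-fold, FDR 0.0501 in the authors' deposited table). For gamma 1 the means were 38.2 RPKM in dry-off, 22.2 RPKM in non-lactation and 3.45 RPKM in lactation (11.1-fold, FDR 0.0606 in the authors' deposited table). The alpha 3, beta 3 and gamma 2 chains together form the laminin of hemidesmosomes, and their ratios were the 3 smallest of the laminins. Laminin alpha 3 rose 2.82-fold, with 11.8 RPKM in dry-off, 8.21 RPKM in non-lactation and 4.17 RPKM in lactation (FDR 0.0243 in the authors' deposited table). Gamma 2 rose 3.96-fold, with 4.40 RPKM in dry-off, 2.59 RPKM in non-lactation and 1.11 RPKM in lactation (FDR 0.0246 in the authors' deposited table). Beta 3 had 15.5 RPKM in dry-off, 10.3 RPKM in non-lactation and 4.29 RPKM in lactation and did not pass (3.61-fold, FDR 0.0608 in the authors' deposited table).

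The heparan sulfate proteoglycans of basement membranes gave 2 rises among 7 transcripts. Perlecan (HSPG2), a large proteoglycan that binds growth factors, had 29.8 RPKM in dry-off, 28.4 RPKM in non-lactation and 3.09 RPKM in lactation (FDR 0.116 in the authors' deposited table). Of its 6 transcripts, 1 passed, with 22.2 RPKM in dry-off, 22.9 RPKM in non-lactation and 2.08 RPKM in lactation (FDR 0.0391 in the authors' deposited table). Agrin, which bridges laminin and dystroglycan, rose 3.19-fold with 9.20 RPKM in dry-off, 9.68 RPKM in non-lactation and 2.88 RPKM in lactation (FDR 0.0054 in the authors' deposited table). For both proteoglycans the dry-off and non-lactation means lay close together.

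Adhesive glycoproteins, which link cells and collagen, gave 15 rises among 29 transcripts. The 6 transcripts of fibronectin 1, an integrin ligand deposited in provisional matrix, all came from 1 component and all rose. The most abundant of them had 7.74 RPKM in dry-off, 5.26 RPKM in non-lactation and 0.570 RPKM in lactation, a 13.6-fold rise (FDR 0.0113 in the authors' deposited table). Thrombospondin, a family whose founding member activates latent TGF-beta and restrains vessel growth, gave 67.2 RPKM in dry-off, 34.9 RPKM in non-lactation and 2.42 RPKM in lactation. This 27.8-fold rise passed (FDR 0.0395 in the authors' deposited table), whereas a second thrombospondin component at 18.1 RPKM in dry-off, 11.7 RPKM in non-lactation and 1.51 RPKM in lactation did not (FDR 0.0686 in the authors' deposited table). Von Willebrand factor, a platelet adhesion protein made by endothelial cells, was the most abundant glycoprotein at 85.5 RPKM in dry-off, 47.9 RPKM in non-lactation and 6.77 RPKM in lactation and rose 12.6-fold (FDR 0.0294 in the authors' deposited table).

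Tenascins, anti-adhesive glycoproteins of remodelling stroma, supplied 18 of the 29 glycoprotein transcripts, from 8 components of 1 family description, and 5 of the 18 rose. The most abundant had 34.4 RPKM in dry-off, 36.9 RPKM in non-lactation and 9.69 RPKM in lactation and rose 3.55-fold (FDR 0.0365 in the authors' deposited table). Reelin, a secreted glycoprotein best known from brain development, was measured as 2 components that both rose in dry-off. One had 6.49 RPKM in dry-off, 1.67 RPKM in non-lactation and 0.349 RPKM in lactation (FDR 0.0242 in the authors' deposited table). The other had 3.35 RPKM in dry-off, 0.654 RPKM in non-lactation and 0.717 RPKM in lactation (FDR 0.0271 in the authors' deposited table). It was the only member whose non-lactation mean lay below its lactation mean.

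Among the receptors, 20 of 25 transcripts rose. Integrin alpha 3, a laminin receptor of epithelium, had 35.4 RPKM in dry-off, 17.0 RPKM in non-lactation and 3.75 RPKM in lactation, a 9.44-fold rise (FDR 0.0102 in the authors' deposited table). Integrin beta 4, the hemidesmosomal partner of the alpha 6 chain, rose in all 4 of its transcripts, and the most abundant had 11.6 RPKM in dry-off, 7.23 RPKM in non-lactation and 0.994 RPKM in lactation (FDR 0.0032 in the authors' deposited table). The collagen receptor chain integrin alpha 1 had 10.3 RPKM in dry-off, 5.25 RPKM in non-lactation and 1.22 RPKM in lactation (FDR 0.0171 in the authors' deposited table). All 3 of these chains pair with other integrin chains at the cell surface. Integrin alpha 7, a laminin receptor of muscle and vessel wall, had 6.08 RPKM in dry-off, 3.83 RPKM in non-lactation and 0.741 RPKM in lactation (FDR 0.00824 in the authors' deposited table). Integrin beta 5, a vitronectin receptor chain, had 34.3 RPKM in dry-off, 28.5 RPKM in non-lactation and 7.50 RPKM in lactation and the smallest receptor ratio, 4.58-fold (FDR 0.00665 in the authors' deposited table). Integrin beta 3, the platelet and endothelial vitronectin receptor chain, had the lowest lactation mean among the receptors that rose, with 3.55 RPKM in dry-off, 2.81 RPKM in non-lactation and 0.170 RPKM in lactation (FDR 0.0199 in the authors' deposited table).

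Integrin alpha 5, the fibronectin receptor chain, had 32.2 RPKM in dry-off, 17.2 RPKM in non-lactation and 4.96 RPKM in lactation, and none of its 3 transcripts passed (FDR 0.0576 for this one in the authors' deposited table). Integrin beta 6, an epithelial chain that activates latent TGF-beta, had 18.7 RPKM in dry-off, 18.8 RPKM in non-lactation and 1.23 RPKM in lactation and did not pass (FDR 0.0808 in the authors' deposited table). Its second transcript rose, with 6.12 RPKM in dry-off, 6.29 RPKM in non-lactation and 0.285 RPKM in lactation (FDR 0.0485 in the authors' deposited table). Integrin alpha 11, a collagen receptor chain of fibroblasts, was listed at 0.659 RPKM in dry-off and at 0 in non-lactation and lactation and did not pass (FDR 0.124 for dry-off against lactation in the authors' deposited table). It is named only because of those zeros, after its values were seen.

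The receptors outside the integrin family all rose. CD44, the hyaluronan receptor carried by leukocytes as well as stromal and epithelial cells, had 62.5 RPKM in dry-off, 20.4 RPKM in non-lactation and 3.53 RPKM in lactation, a 17.7-fold rise (FDR 0.0401 in the authors' deposited table). Its 4 transcripts, from 1 component, gave the same call. CD47, a thrombospondin receptor and a signal against phagocytosis, had 16.6 RPKM in dry-off, 9.31 RPKM in non-lactation and 2.68 RPKM in lactation (FDR 0.00543 in the authors' deposited table). Dystroglycan, the laminin receptor that is not an integrin, had 34.7 RPKM in dry-off, 24.9 RPKM in non-lactation and 6.49 RPKM in lactation (FDR 0.0148 in the authors' deposited table). Integrin beta 1, the partner of the alpha chains named here but no member itself, had 85.6 RPKM in dry-off, 54.3 RPKM in non-lactation and 18.3 RPKM in lactation and also rose (FDR 0.00358 in the authors' deposited table).

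**Figure D2:**
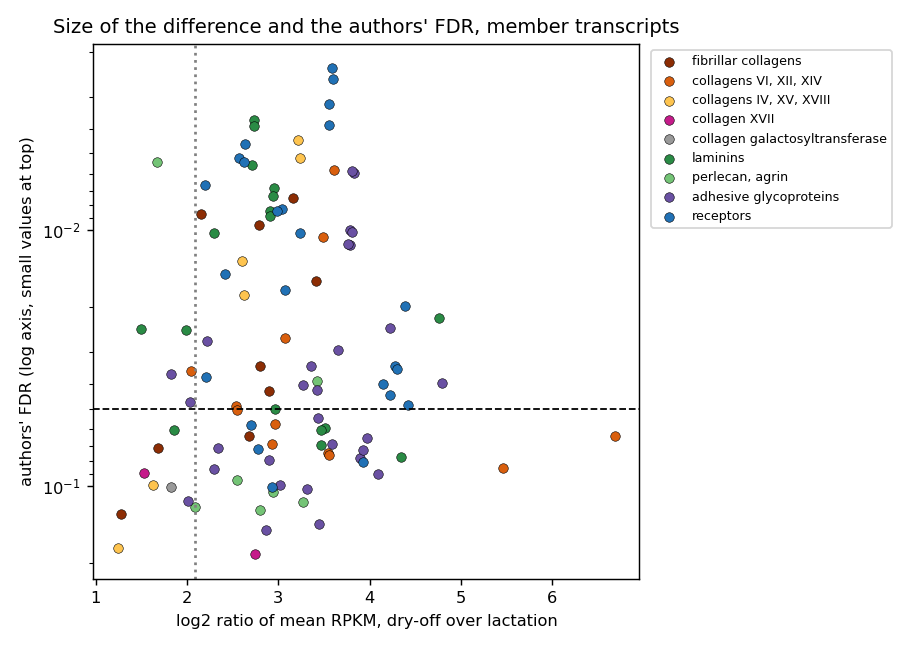
Log2 ratio of the authors' dry-off mean over their lactation mean (horizontal axis) against the FDR of that comparison in the authors' deposited table (vertical axis, log scale, small values at the top; dashed line at 0.05), 1 point per ECM transcript, coloured by role. Of the 107 members with a ratio, 93 lie above the table's median log2 ratio of 2.09 (dotted line), and points with a large ratio stand on both sides of the FDR of 0.05.

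The plot of ratio against FDR shows that the size of the difference did not order the calls. Collagen XIV, perlecan, laminin gamma 1 and collagen VI transcripts with ratios above 7-fold stayed above an FDR of 0.05, while laminin alpha 3 and agrin passed with ratios near 3-fold. The spread between samples is not given in the stage means, and its part in these FDRs was not tested.

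The second comparison sets the non-lactating gland against lactation. It shares the lactation samples with the first one, so the values stand side by side and their likeness is no separate result. None of the 108 members tested passed an FDR of 0.05 by the authors' test, which the deposited table does not name, and 1 transcript of the whole table did (0.0110%). An unadjusted p below 0.05 with a higher non-lactation mean was reached by 68 members, or 63.0%, against 41.5% of all tested transcripts. The lowest FDR among members was 0.0973 in the authors' deposited table, held by dystroglycan and by a laminin alpha 4 transcript. The median member had a 6.59-fold higher mean in non-lactation than in lactation, against 2.62-fold over the table, and 100 of 107 members lay above the table's median. By role, an unadjusted p below 0.05 was reached by 5 of 6 basement membrane collagen transcripts, 6 of 7 proteoglycan transcripts and 22 of 29 glycoprotein transcripts. Among laminins it was 11 of 17, among receptors 14 of 24 and among collagens VI, XII and XIV 6 of 13. Fibrillar collagens, with the highest means, reached it in 2 of 9 transcripts: the most abundant had 637 RPKM in non-lactation and 29.3 RPKM in lactation, a ratio of 21.7-fold with an FDR of 0.216 in the authors' deposited table.

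The third comparison sets the non-lactation samples against dry-off. None of the 109 members passed in either direction by the authors' test, and neither did any transcript of the table (0%). An unadjusted p below 0.05 with a lower non-lactation mean was reached by 31 members, or 28.4%, against 38.5% of all tested transcripts. No member reached it with a higher non-lactation mean, and few transcripts of the table did. Of the 3702 transcripts of the table that reached it, 3516 had a lower non-lactation mean. The median member had a non-lactation mean 0.736-fold that of dry-off, against 0.617-fold for the median transcript of the table.

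Members with different roles sat at different places on this axis. The 31 transcripts with an unadjusted p below 0.05 were 11 of 17 laminin, 16 of 25 receptor, 3 of 29 glycoprotein and 1 of 13 collagen VI, XII and XIV transcripts. No fibrillar collagen, basement membrane collagen, collagen XVII or proteoglycan transcript was among them. The median log2 ratio of non-lactation over dry-off was 0.22 for fibrillar collagens, 0.04 for perlecan and agrin, -0.15 for collagens VI, XII and XIV and -0.19 for glycoproteins. It was -0.36 for collagens IV, XV and XVIII, -0.69 for laminins and -0.74 for receptors, against -0.70 over the table. A higher mean in non-lactation than in dry-off was found for 31 of 109 members (28.4%), against 748 of 9131 transcripts of the table (8.19%). These were 7 of 9 fibrillar collagen, 3 of 13 collagen VI, XII and XIV, 2 of 6 basement membrane collagen and 1 of 2 collagen XVII transcripts. The rest were 11 of 29 glycoprotein, 4 of 7 proteoglycan, 1 of 17 laminin and 2 of 25 receptor transcripts. The difference between roles was not tested.

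**Figure D3:**
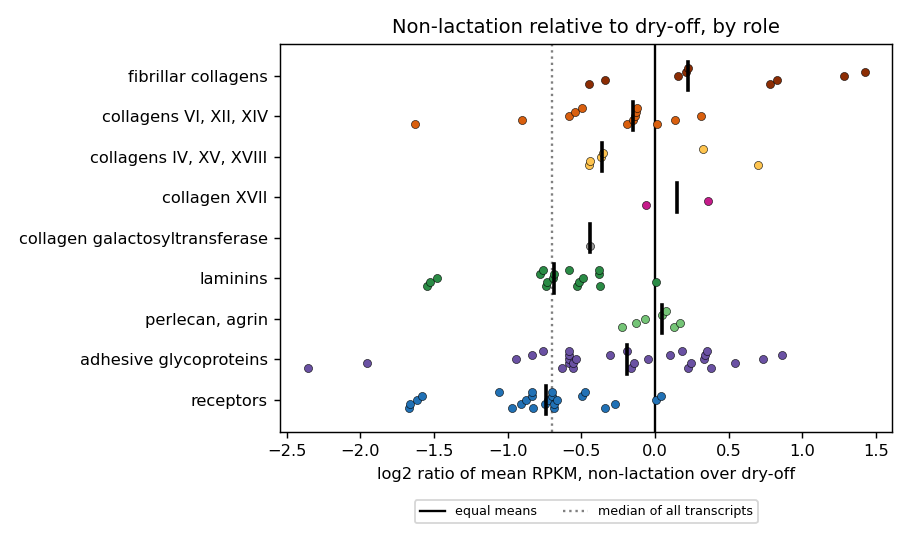
Log2 ratio of the authors' non-lactation mean over their dry-off mean for each ECM transcript, grouped by role. Short bars give the median of a role, the solid line equal means and the dotted line the table's median of -0.70; fibrillar collagens lie mostly above 0, while receptors have a median of -0.74.

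Single members span this range. The fibrillar collagen with 637 RPKM in non-lactation and 262 RPKM in dry-off had a ratio of 2.43-fold, and its FDR was 0.351 in the authors' deposited table. Another fibrillar component, with 318 RPKM in non-lactation and 119 RPKM in dry-off, had the highest ratio of all members at 2.68-fold (FDR 0.372 in the authors' deposited table). At the other end, the reelin component with 0.654 RPKM in non-lactation and 3.35 RPKM in dry-off had the lowest at 0.196-fold (FDR 0.156 in the authors' deposited table). CD44 and laminin alpha 2 were also low, with ratios of 0.327-fold (FDR 0.164) and 0.359-fold (FDR 0.189) in the authors' deposited table. Over the same pair of stages, the summed macrophage markers stood at 0.399-fold, T and NK cell markers at 0.355-fold and fibroblast markers at 0.623-fold; the part of these cells was not tested.

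Summed over 1 transcript per component, the members together had 1986 RPKM in dry-off, 2427 RPKM in non-lactation and 270.0 RPKM in lactation. That was 0.879% of the table's summed RPKM in dry-off, 1.36% in non-lactation and 0.172% in lactation. Fibrillar collagens made up much of each sum, with 590 RPKM in dry-off, 1316 RPKM in non-lactation and 68.2 RPKM in lactation. Their sum was thus higher in non-lactation than in dry-off, whereas those of receptors, laminins and glycoproteins were lower. Receptors summed to 311 RPKM in dry-off, 181 RPKM in non-lactation and 40.1 RPKM in lactation. Laminins summed to 203 RPKM in dry-off, 117 RPKM in non-lactation and 28.2 RPKM in lactation. Adhesive glycoproteins summed to 270 RPKM in dry-off, 183 RPKM in non-lactation and 27.9 RPKM in lactation. Collagens VI, XII and XIV had nearly equal sums in dry-off and non-lactation, at 331 and 342 RPKM, against 46.7 RPKM in lactation. The same held for perlecan and agrin, with 106 RPKM in dry-off, 106 RPKM in non-lactation and 16.4 RPKM in lactation. These sums carry no error and no test.

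**Figure D4:**
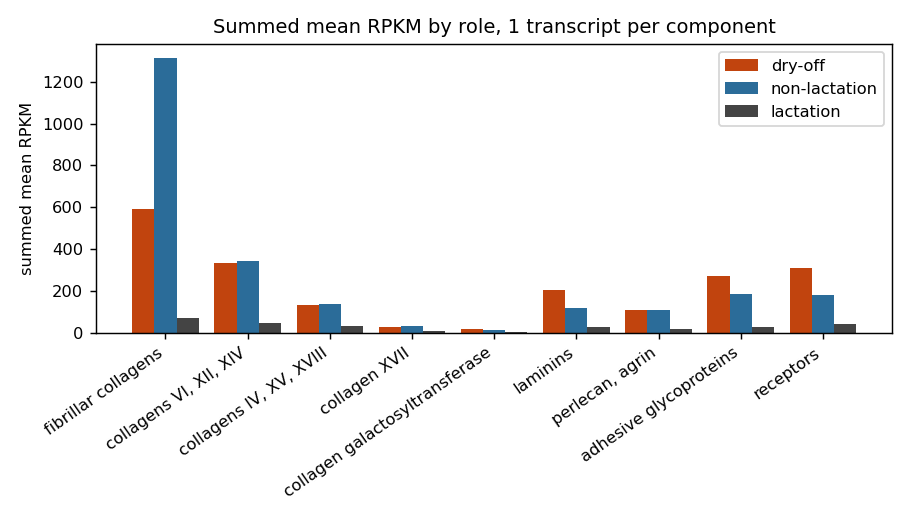
Summed mean RPKM of the ECM transcripts by role in dry-off, non-lactation and lactation, with 1 transcript per assembly component and no error bars because only stage means are used. Fibrillar collagens sum to 590 RPKM in dry-off, 1316 RPKM in non-lactation and 68.2 RPKM in lactation, and laminins and receptors are highest in dry-off.

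The authors also sorted transcripts into 16 stage profiles, made from the same means, so the profiles describe the order of the stages again. Profile 11 held 78 of the 109 members (71.6%) and 28.6% of the table. Profile 14 held 20 members (18.3%) and 57.6% of the table, and profile 15 held 8 members (7.34%) and 1.13% of the table. Over all 2613 transcripts of the table in profile 11, the median log2 ratio was 2.40 for dry-off over lactation and 2.00 for non-lactation over lactation. Over the 5258 in profile 14 these medians were 2.14 and 1.29, and over the 103 in profile 15 they were 1.33 and 1.85. Most members thus fell into the profile in which the dry-off and non-lactation levels lay closer together, whereas most of the table was in the one with a wider gap between them.

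The deposited correlation list gives the number of transcripts correlated with each transcript, whether or not it is a member. It comes from the same data as the stage means and profiles, so it is no separate result beside them. The median was 6210 for the ECM members and 7544 for the table, and 55 of 109 members (50.5%) lay below the table's lower quartile of 6479.5. Fibrillar collagens had a median of 1192 correlated transcripts, perlecan and agrin 2038, and collagens VI, XII and XIV 3527. Laminins and receptors, at 7684 and 7818, lay slightly above the table's median. Members that rose in dry-off had a median of 6938, against 3312.5 for members that did not pass. Over the whole table the medians were 7648 for called and 7125 for not called transcripts. How a pair of transcripts was counted as correlated is not given in the files.

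**Figure D5:**
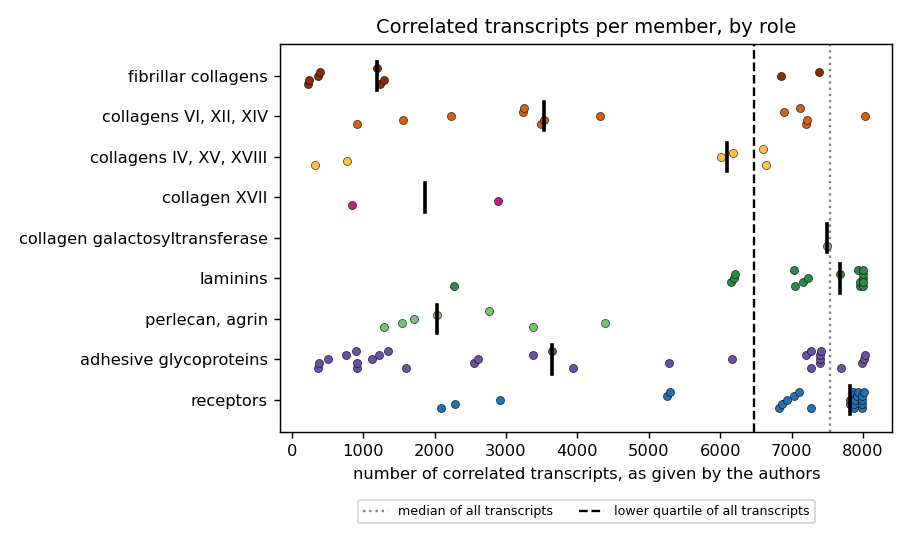
Number of correlated transcripts that the authors' deposited list gives for each ECM transcript, grouped by role, with role medians as short bars and the table's median of 7544 (dotted) and lower quartile of 6479.5 (dashed) as lines. Fibrillar collagens (median 1192) and proteoglycans (median 2038) lie low, and receptors (median 7818) and laminins (median 7684) lie near the table's median.

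Genes that act with these members were counted from lists by role, leaving out members, and each count stands beside the 65.9% of all tested transcripts that rose. Of 26 collagen biosynthesis genes, 5 were measured under a description of their own and 3 of these rose in dry-off, while 2 of the 5 lay above the table's median ratio. They were ADAMTS2, which trims the amino end of procollagens, PLOD1, a lysyl hydroxylase, and PPIB, a prolyl isomerase of the endoplasmic reticulum. ADAMTS2 had 5.21 RPKM in dry-off, 8.03 RPKM in non-lactation and 1.00 RPKM in lactation (FDR 0.0076 in the authors' deposited table). PLOD1 had 40.4 RPKM in dry-off, 18.7 RPKM in non-lactation and 6.27 RPKM in lactation (FDR 0.013 in the authors' deposited table). PPIB had 432 RPKM in dry-off, 195 RPKM in non-lactation and 130 RPKM in lactation (FDR 0.0148 in the authors' deposited table), a log2 ratio of 1.73 for dry-off over lactation and so below the table's median of 2.09. The prolyl 4-hydroxylase family description rose as well. ADAMTS2 was thus highest in non-lactation, as were the abundant fibrillar collagens, while the other 2 were highest in dry-off.

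Of 18 small leucine-rich proteoglycans and microfibril genes, 6 were measured, 3 rose, and all 6 lay above the table's median ratio. Decorin, which binds collagen fibrils, had 614 RPKM in dry-off, 424 RPKM in non-lactation and 43.5 RPKM in lactation (FDR 0.00374 in the authors' deposited table). Fibromodulin, another fibril-binding proteoglycan, had 24.5 RPKM in dry-off, 21.7 RPKM in non-lactation and 2.22 RPKM in lactation (FDR 0.0057 in the authors' deposited table). The microfibril protein fibrillin 1 had 6.05 RPKM in dry-off, 6.40 RPKM in non-lactation and 0.663 RPKM in lactation (FDR 0.00585 in the authors' deposited table). For all 3 the non-lactation mean lay above the lactation mean, without passing for that pair of stages.

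Adaptors that act with integrins inside the cell were measured for 5 genes and 4 families of the 21 symbols listed. Of these, 3 genes and all 4 families rose. Integrin-linked kinase had 87.7 RPKM in dry-off, 64.8 RPKM in non-lactation and 42.0 RPKM in lactation, a 2.09-fold rise (FDR 0.0279 in the authors' deposited table). Focal adhesion kinase (PTK2) had 8.45 RPKM in dry-off, 6.11 RPKM in non-lactation and 3.45 RPKM in lactation (FDR 0.00811 in the authors' deposited table). The filamin and parvin families also rose. Of the 9 entries 4 lay above the table's median ratio, and integrin-linked kinase, PTK2, filamin and parvin lay below it. In the TGF-beta axis, the main inducer pathway of matrix genes, 4 of 5 measured genes and 3 of 4 families rose, out of 14 symbols, and 6 of these 9 entries lay above the table's median ratio. The transducer SMAD4 had 18.7 RPKM in dry-off, 11.2 RPKM in non-lactation and 4.32 RPKM in lactation (FDR 0.00518 in the authors' deposited table). The TGF-beta receptors TGFBR2 and TGFBR1 rose 4.52-fold and 3.03-fold (FDR 0.00822 and 0.0118 in the authors' deposited table), TGFBR1 with a ratio below the table's median. Nidogen, the link between laminin and collagen IV, is no member and rose 9.20-fold with 21.8 RPKM in dry-off, 16.8 RPKM in non-lactation and 2.37 RPKM in lactation (FDR 0.0164 in the authors' deposited table).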

How the data were processed

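RNA-seq of 9 goat mammary samples was used as the authors deposited it: mean RPKM per stage, and for every comparison of stages a p-value with its FDR, per the file headers. The submitters' processing notes name FastQC. The assembler, aligner, counter, genome build and test of the authors were not given in the sources used here. Correlation numbers, stage profiles and pathway members are also the authors' deposited values. Depth per sample is unknown, so no SD, interval or floor is given.

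The members and gene lists were chosen with earlier results of these data known. A call is the authors' FDR below 0.05; the design foresaw limma had values per sample been found, and no test of expression was run here. Ratios were recomputed from the means because the deposited log2 columns hold spreadsheet errors and infinite values. Medians of differences used log2(mean RPKM + 1) where stated, and plain ratios otherwise. Named are all descriptions whose highest-mean transcript passes in any comparison or reaches 10 RPKM in any stage, transcripts with a mean below lactation, and up to 4 genes of each related list. That transcript stands for its description. Of the 28 descriptions that name 1 gene, 27 symbols were found in the RefSeq gene table. Across the 51299 transcripts listed, 135 carry the members' descriptions. Near-identical family members share reads and cannot be told apart. The code (Python 3.11.15, pandas 2.3.3, numpy 2.4.6, matplotlib 3.10.9) was tested on simulated data.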

Additional observations from a re-analysis of the deposited data

How the results depend on the processing

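No paired analysis was possible because only stage means were analysed; for the same reason no replicate could be left out, and precision from depth is unknown. Selecting 1 transcript per description, omitting the pseudocount and centring single members were chosen after seeing the data. At an FDR below 0.01, 27 instead of 63 members rose in dry-off against lactation, 1505 instead of 6079 transcripts of the table passed, and 0 instead of 1 passed for non-lactation against lactation; 16 of 26 representative transcripts lost their call. With 1 transcript per component 38 of 71 members rose, against 4144 of 6475 transcripts of the table that passed. With 1 per description 26 of 38 members rose (68.4%), and no share over the table was computed for that setting. At an unadjusted p below 0.05, 68 members and 3811 transcripts passed for non-lactation against lactation, and 31 members and 3702 transcripts for non-lactation against dry-off. The members' median log2 difference for dry-off against lactation, 2.33 with a pseudocount of 1, was 2.91 with 0.1, 2.98 with none, 0.86 centred on the table and 1.34 centred on ribosomal proteins. For non-lactation against lactation, 1.92 became 2.62, 2.72, 1.03 and 1.53 in that order of settings, 1.77 with 1 transcript per component and 1.79 with 1 per description. For non-lactation against dry-off, -0.35 became -0.47 with 1 transcript per description, and reversed to 0.20 centred on the table and 0.25 centred on ribosomal proteins. Centring on the table turned the log2 ratio of dry-off over lactation negative for 8 representative transcripts. Of these, 5 had passed the FDR: tenascin (-0.26), agrin (-0.41), laminin alpha 3 (-0.59), laminin gamma 2 (-0.10) and collagen, type XII (-0.043). The other 3 had not: collagen IV (-0.46), collagen galactosyltransferase (-0.27) and laminin beta 3 (-0.23). By construction centring subtracts the table's or the ribosomal median; the cause of the other changes was not tested. A minimum mean of 1 RPKM, a minimum of 2-fold and the pathway members alone changed no direction and no count by more than 1.5 times.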
